A study of Solanum dulcamara with 18 samples.

Results

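In leaves of bittersweet nightshade (Solanum dulcamara), which belongs to the same genus as tomato and potato, the read level of 120 assembled contigs, of 24158 counted, was lower after caterpillar feeding under each of 3 water treatments. A contig is a stretch of transcript put together from sequencing reads. The 120 were chosen from the measured values themselves. Reads were expressed as CPM, a contig's count scaled to a fixed library total, and the mean of log2(CPM + 1) was taken in each group. A contig was taken when its mean CPM over all libraries was at least 2 and its infested mean lay at least 0.6 log2 units (1.52-fold) below the uninfested mean in control, drought and flooding alike. The fall after feeding is therefore a property of the choice and not a finding. It is described below without being used as evidence, and the tests are kept for the water treatments, which the choice did not use.

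The plants were grown in a greenhouse and kept under control, drought or flooding conditions for 5 days. Each water treatment then continued for 2 further days, during which plants were either left without insects or fed on for 48 h by Spodoptera exigua, a moth whose larvae (beet armyworms) eat the leaves of many plants. Leaf RNA was sequenced from 3 libraries in each of the 6 combinations, 18 libraries in all, which the series describes as biological replicates. The labels do not say how control, drought or flooding was set, how many larvae fed, or whether the sampled leaf was the bitten one. The column numbers of infested libraries run separately from those of uninfested libraries, so a difference in handling that followed them cannot be told apart from feeding. Within each run the numbers lie in blocks of 3 by water treatment, so handling that followed them cannot be told apart from water either.

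Chewing insects are known to switch on jasmonate signalling in leaves, which raises many defence genes while many genes of photosynthesis and growth are lowered. Drought acts on leaf gene expression largely through abscisic acid, and flooding largely through ethylene and shortage of oxygen at the roots. Which of these processes the 120 contigs belong to is not given here, because the tables identify contigs by number only. The RefSeq gene table of the species held no match to any of the 24158 IDs (0 matches), so no role, sequence or genome position is stated for any contig, and leaf marker genes could not be checked. In whole leaf tissue, fewer cells of a type and less RNA per cell cannot be told apart.

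Library totals ran from 6717218 to 16056241 counted reads. The scaling factors of the trimmed mean of M values (TMM), which adjust for a few contigs taking much of a library, ran from 0.9103 to 1.092. In all 18 pairs of replicates the counts differed beyond sampling noise, with chi-square values per degree of freedom of 7.47 to 44.1.

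Of the 17096 contigs averaging 2 CPM or more, 819 passed the threshold in control plants, 458 in drought and 1085 in flooding. The 120 that passed in all 3 made up 0.702% of the 17096. The opposite choice, at least 0.6 log2 units higher after feeding in every water treatment, was met by 569 contigs (3.33%). Drought was the condition that most often kept a contig off the list: 360 contigs passed in control and flooding but not in drought, whereas 39 failed only in control and 43 only in flooding. Those just inside the threshold were comp11047_c0_seq1 and comp11272_c0_seq1, with a least negative difference of −0.601 each. Just outside lay comp18719_c0_seq1 at −0.599 and comp5408_c0_seq1 at −0.595.

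The contigs were of ordinary abundance. Their median level was 21.1 CPM, the same as the median of all 17096 contigs at or above 2 CPM, and 23 of them exceeded 100 CPM. They were shorter, with a median of 1080 bases against 1340, and per kilobase of contig their median level was 20.3 CPM against 14.6. The longest were comp904_c0_seq1 (4146 bases) and comp13241_c0_seq1 (3286 bases), and the shortest were comp8779_c0_seq1 (502 bases) and comp14892_c0_seq1 (512 bases). No pair came from the same assembly component, so the 120 are not splice forms or fragments that the assembler had grouped together. All 120 passed the filter on low counts and all were in the authors' normalized table. Replicates were noisier for these contigs than in general: the median within-group SD of log2(CPM + 1) was 0.353, against 0.206 for all contigs.

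Together the 120 contigs took about 2% of the reads of an uninfested control leaf. Their share was 2.03%, 2.09% and 1.81% of reads in the 3 uninfested control libraries, 1.27%, 1.38% and 1.29% in uninfested drought, and 2.16%, 2.41% and 1.54% in uninfested flooding. After feeding it was 0.845%, 0.696% and 1.05% in control, 0.618%, 0.827% and 0.663% in drought, and 0.842%, 0.798% and 0.789% in flooding. Every infested library thus lay below every uninfested one, which the choice of contigs made likely, and uninfested drought lay below the other uninfested groups. As means the shares were 1.98% ± 0.147, 1.31% ± 0.0586 and 2.04% ± 0.448 (SD, n = 3 each) in uninfested control, drought and flooding. The infested means were 0.864% ± 0.178, 0.703% ± 0.11 and 0.81% ± 0.0284 in the same order (SD, n = 3 each). A few abundant contigs carried much of this: without the 5 most abundant, the uninfested means were 0.901%, 0.657% and 0.974%, and the infested means 0.428%, 0.341% and 0.43%.

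**Figure D1:**
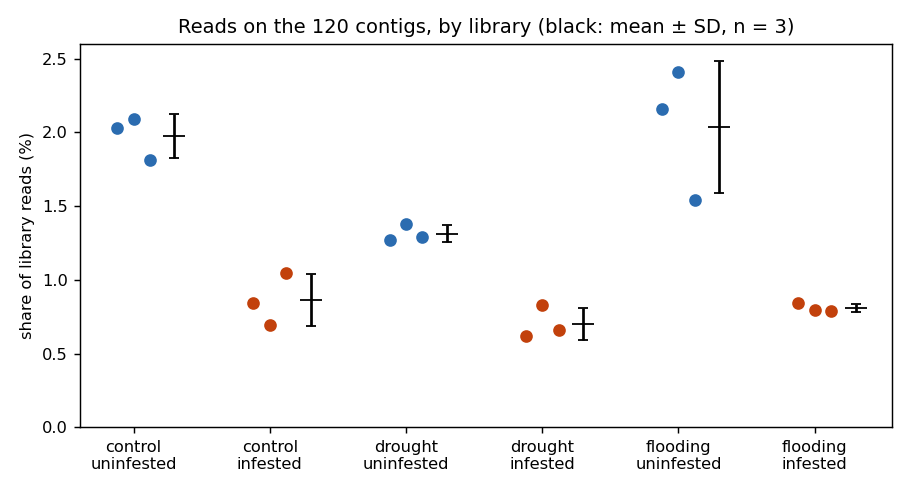
Share of each library's counted reads that fell on the 120 contigs, in percent, by group; points are libraries, bars are means and error bars are SD (n = 3). Uninfested control and flooding averaged 1.98% and 2.04%, uninfested drought 1.31%, and the infested groups 0.703% to 0.864%.

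The abundant contigs were led by comp195_c0_seq1 (1142 bases). Its level was 3256, 3747 and 3170 CPM in uninfested control leaves and 1770, 1333 and 1929 CPM after feeding. In drought it was 2045, 2184 and 2121 CPM against 1314, 1651 and 1215 CPM, and in flooding 3812, 4024 and 2763 CPM against 1413, 1202 and 1684 CPM. Infested and uninfested libraries did not overlap under any water treatment for this contig, and the uninfested drought libraries formed a tight group below the other uninfested ones. Averaged over both insect treatments, comp195_c0_seq1 was lower in drought than in control by a log2 fold change of −0.58 ± 0.15 (SE; edgeR quasi-likelihood test, adjusted p = 0.00932). Its change in flooding did not pass the test (−0.20 ± 0.15, adjusted p = 0.312).

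Next in abundance, comp42_c0_seq1 (1548 bases) had 3151, 3509 and 2706 CPM in uninfested control leaves and 896, 575 and 1259 CPM in infested ones. In flooding it ranged from 909 to 3442 CPM without insects and from 165 to 412 CPM with them, and in drought from 860 to 1214 CPM and from 247 to 617 CPM. Uninfested flooding libraries were thus widely spread for this contig, with replicate 3 the lowest. It fell in both stresses, with a log2 fold change of −1.48 ± 0.34 in drought (edgeR adjusted p = 0.00619) and −1.17 ± 0.34 in flooding (adjusted p = 0.0156). The other abundant contigs, comp97_c0_seq1, comp336_c0_seq1 and comp3399_c0_seq1, had uninfested control means of 1241, 1439 and 1561 CPM. After feeding in control plants their means were 547, 666 and 565 CPM.

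The herbivory differences that made the list are described here by water treatment, and no difference between treatments is read from them. Their medians over the 120 contigs were −0.93 in control, −0.86 in drought and −1.11 in flooding, where the medians of all contigs at or above 2 CPM were −0.02, −0.07 and −0.03. The largest fall of a contig was in flooding for 70, in control for 27 and in drought for 23. The matching shares of all contigs were not counted. A fall of at least 1 log2 unit in all 3 was seen for 16. The range of a contig's 3 differences had a median of 0.39 log2 units, against 0.29 over all contigs. Replicates of the 120 were also noisier, with a median within-group SD of 0.353 against 0.206. The most alike were comp17253_c0_seq1 (−0.93, −0.95 and −0.90 in control, drought and flooding), comp11047_c0_seq1 (−0.65, −0.60 and −0.64) and comp97_c0_seq1 (−1.11, −1.08 and −1.06). The least alike were comp6597_c0_seq1 (−1.48, −0.84 and −2.11), comp42_c0_seq1 (−1.84, −1.44 and −2.68) and comp14844_c0_seq1 (−2.77, −2.22 and −1.58). The last of these had its smallest fall in flooding, unlike the order of the medians. Whether the feeding effect differed between water treatments was tested with edgeR (adjusted p under 0.05). Of the 120, 0 were called for drought against control, flooding against control or flooding against drought. Of all contigs, 0 were called in the comparisons with control and 4 (0.0198%) in flooding against drought.

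**Figure D2:**
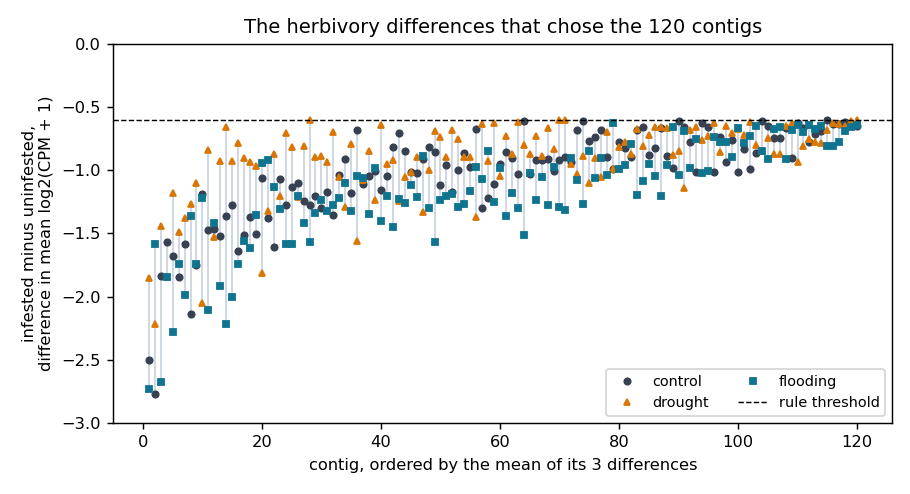
Difference in mean log2(CPM + 1) between infested and uninfested leaves for each of the 120 contigs under control (circles), drought (triangles) and flooding (squares), ordered by the mean of the 3; the dashed line is the threshold of −0.6 that chose them. Medians were −0.93, −0.86 and −1.11, and these values describe the choice.

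With a test on every contig, 75 of the 120 were called lower after feeding in control (62.5%, against 3.92% of all 20170 contigs tested), 30 in drought (25%, against 0.342%) and 92 in flooding (76.7%, against 5.79%). A contig was called when its edgeR adjusted p over all contigs was under 0.05. Calls in every one of the 3 water treatments were made for 28 of the 120 (23.3%, against 0.174% of all contigs). These contrasts are the ones that chose the contigs, so nothing is read from the counts. The control count was 39 without infested control replicate 2 (1.78% of all contigs). It was 44 without uninfested control replicate 1 (1.26%) and 38 without uninfested control replicate 2 (1.1%). The drought count was 10 without infested drought replicate 1 (0.0682% of all contigs). It was 15 without infested drought replicate 3 (0.21%) and 11 without uninfested drought replicate 2 (0.0881%). All 3 infested CPM values lay below all 3 uninfested ones in every water treatment for 81 contigs (67.5%, against 3.72% of all contigs). By single treatment this held for 102 in control (85.0%, against 17.4% of all), 100 in drought (83.3%, against 15.2%) and 104 in flooding (86.7%, against 16.7%). For comp21492_c0_seq1 alone it held under no treatment. That contig, named after its values were seen, had 1.28, 3.05 and 3.57 CPM in uninfested control leaves and 1.73, 0.51 and 1.47 CPM after feeding.

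Part of the 120 contigs also differed in level between water treatments, a comparison that the choice had not used. Averaged over leaves with and without insects, 46 were lower in drought than in control and 8 were higher (edgeR, adjusted p under 0.05). In flooding the balance was the other way, with 43 higher and 20 lower than in control. Flooded leaves exceeded drought leaves for 50 contigs and lay below them for 2. The 3 comparisons share libraries and are given side by side. The contigs share those libraries too and tended to move together within groups, so they do not count as independent observations.

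Against the background of all contigs tested, these counts read as follows. The 46 lower in drought were 38.3% of the 120, where 12.5% of all contigs were lower, and the 8 higher were 6.67%, where 9.81% of all were higher. The 43 higher in flooding than in control were 35.8%, against 14.6% of all contigs, and the 20 lower were 16.7%, close to the 17.4% of all contigs. The 50 higher in flooding than in drought were 41.7%, against 4.39%, and the 2 lower were 1.67%, against 6.51%. Of calls of at least 2-fold, 22 were lower in drought and 7 higher, where 3.13% and 2.46% of all contigs were. In flooding against control 21 were higher and 13 lower (all contigs 2.31% and 5.49%), and in flooding against drought 20 were higher and 2 lower (all contigs 0.62% and 2.44%). No call in any of the 3 was made for 27 of the 120 contigs. The matching share of all contigs was not counted, so the 27 is not read as few or many.

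Medians and signs gave the same ordering. The median log2 fold change of the 120 was −0.36 for drought against control, 0.19 for flooding against control and 0.49 for flooding against drought, while the medians of all contigs were 0.01, 0.01 and 0.01. The estimate was below 0 in drought for 83 of the 120 (69.2%, against 48.9% of all contigs), above 0 in flooding against control for 75 (62.5%, against 51.6%) and above 0 in flooding against drought for 102 (85.0%, against 51.3%). As a description, the median within uninfested leaves was −0.43 in drought and 0.26 in flooding, and within infested leaves −0.23 and 0.17. Called falls in drought ran from −0.39 to −2.97 with a median of −0.97, and called rises in flooding from 0.37 to 2.39 with a median of 0.97.

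**Figure D3:**
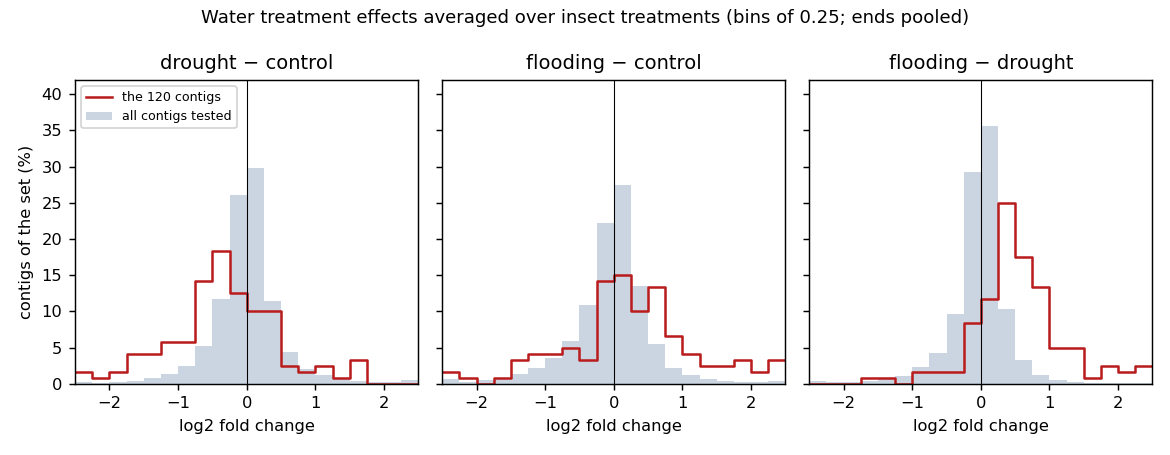
Distribution of the log2 fold change between water treatments, averaged over infested and uninfested leaves, for all 20170 contigs tested (grey bars) and for the 120 contigs (red line), in percent of each set. The red line is displaced to the left in drought against control (median −0.36) and to the right in flooding against drought (median 0.49).

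Scaling bears on these counts. Without TMM, the median of all contigs moved to 0.11 in drought against control and 0.13 in flooding against control, and the share of all called contigs that were higher moved from 44.0% to 66.9% and from 45.5% to 66.2%. The 120 contigs then gave 12 higher and 39 lower in drought, where 17.7% and 8.76% of all contigs were called. They gave 54 higher and 20 lower in flooding against control (25% and 12.8% of all contigs), and 52 higher and 2 lower in flooding against drought (4.58% and 5.84%). For feeding, the higher share of all calls moved from 89.4% to 72.0% in drought and from 62.4% to 49.4% in flooding.

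Water treatments can also be set side by side within uninfested or within infested leaves. These groups each entered the choice of contigs, so the counts are a description and add no separate support to the tests on averages. On TMM-scaled CPM, all 3 uninfested drought libraries lay below all 3 uninfested control libraries for 52 contigs (43.3%, against 19.9% of all contigs), and among infested leaves this held for 30 (25%, against 13.9%). All flooding libraries lay above all control libraries for 36 contigs without insects (30.0%, against 15.1%) and for 35 with them (29.2%, against 16.1%). Flooding lay wholly above drought for 60 of the 120 contigs without insects (against 11.6% of all) and for 39 with them (32.5%, against 9.59%). By group means of log2(CPM + 1), the highest of the 6 groups was uninfested flooding for 82 contigs, uninfested control for 28 and uninfested drought for 10. These were 68.3%, 23.3% and 8.33% of the 120, where the same groups were highest for 28.5%, 13.1% and 17.0% of all contigs at or above 2 CPM. The choice left only uninfested groups able to be highest. Among all contigs that were highest in an uninfested group, flooding held 48.6%, control 22.4% and drought 29.0%. With TMM scaling the numbers for the 120 were 69, 42 and 9 (57.5%, 35.0% and 7.5%), against 41.9%, 37.5% and 20.6% of contigs highest in an uninfested group. By column total, the uninfested drought mean lay below the infested control mean for 16 contigs. The matching share of all contigs was not counted, and this order of means was not tested.

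**Figure D4:**
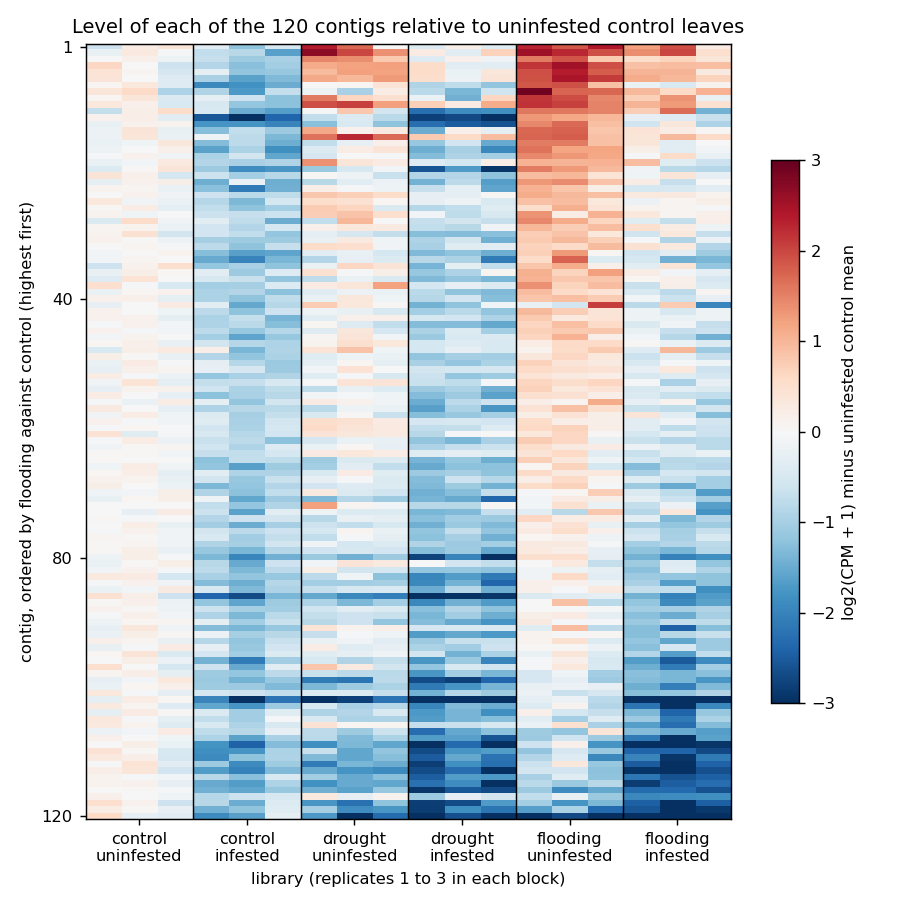
Level of each of the 120 contigs (rows, ordered by flooding against control) in each of the 18 libraries (columns, in blocks of 3 replicates), as log2(CPM + 1) minus the uninfested control mean. The median over the 120 contigs was taken in each library and averaged over the 3 replicates. It was −0.98 in infested control, −1.14 in infested drought, −0.68 in infested flooding and −0.27 in uninfested drought.

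The contig with the deepest mean fall after feeding, comp1461_c0_seq1 (1844 bases), was also the one most lowered by drought among those of at least 8 CPM. It had 99.3, 141 and 127 CPM in uninfested control leaves, 6.2, 16.5 and 25.4 CPM in uninfested drought and 101, 108 and 68.7 CPM in uninfested flooding. After feeding it had 29.8, 11.3 and 25.3 CPM in control, 3.58, 4.06 and 2.04 CPM in drought and 13.4, 13.6 and 11.6 CPM in flooding. Uninfested drought leaves thus overlapped with infested control leaves, and infested drought leaves were the lowest of all. The drought effect was −2.97 ± 0.32 (log2, SE; edgeR adjusted p = 3.61e-05), and flooding exceeded drought by 2.26 ± 0.32 (adjusted p = 0.000521). Flooding against control did not pass (−0.71 ± 0.28, adjusted p = 0.0688).

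Drought also strongly lowered comp16520_c0_seq1 (1038 bases), which had 26.3, 21.5 and 12.1 CPM in uninfested control leaves and 5.97, 4.23 and 3.81 CPM in uninfested drought leaves. In uninfested flooding it stood at 13.8, 14.8 and 15.6 CPM, above drought and within the range of control. Its drought effect was −1.93 ± 0.30 (edgeR adjusted p = 0.000385) and its flooding effect was −0.16 ± 0.27 (adjusted p = 0.696). Similarly, comp18633_c0_seq1 (948 bases) had a log2 fold change of −1.33 ± 0.22 in drought (adjusted p = 0.000673) and of −0.09 ± 0.21 in flooding (adjusted p = 0.789).

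A second kind of pattern was a high level in flooding. For comp14844_c0_seq1 (2557 bases), uninfested leaves had 79.7, 83.9 and 58.7 CPM in control, 43.3, 54.5 and 41.7 CPM in drought and 182, 165 and 147 CPM in flooding. Infested leaves had 11.8, 6.12 and 13.2 CPM in control, 9.61, 10.3 and 7.69 CPM in drought and 61.5, 55.9 and 45.7 CPM in flooding. Fed-on flooded leaves therefore reached the range of uninfested drought leaves. Flooding exceeded control by 1.65 ± 0.17 (log2; edgeR adjusted p = 6.61e-06) and drought by 2.18 ± 0.17 (adjusted p = 8.76e-06).

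The widest separation of flooding from drought among the contigs with the deepest falls was that of comp11642_c0_seq1 (776 bases). Its uninfested values were 11.4, 14.9 and 14.5 CPM in control, 5.05, 9.57 and 5.27 CPM in drought and 38.4, 46.1 and 26.3 CPM in flooding. After feeding they were 3.23, 3.26 and 2.65 CPM, 1.98, 1.58 and 1.36 CPM, and 8.63, 17.3 and 6.68 CPM. The order drought, control, flooding held without overlap in both insect treatments. Flooding exceeded drought by 2.58 ± 0.25 (edgeR adjusted p = 3.12e-05), and both stresses differed from control, at −1.06 ± 0.27 in drought (adjusted p = 0.00966) and 1.51 ± 0.23 in flooding (adjusted p = 0.000207). For comp3824_c0_seq1 (839 bases), flooding exceeded drought by 1.97 ± 0.27 (adjusted p = 0.000362) and control by 1.08 ± 0.26 (adjusted p = 0.00505).

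Several contigs were higher in both stresses than in control. The highest rise in flooding among contigs of at least 8 CPM belonged to comp18577_c0_seq1 (1172 bases), with 13.8, 20.1 and 15.6 CPM in uninfested control, 111, 68.5 and 44 CPM in uninfested drought and 99.5, 81.8 and 64.8 CPM in uninfested flooding. Infested leaves of the stressed plants, at 19.5, 13 and 27.1 CPM in drought and 44.8, 68.5 and 23.3 CPM in flooding, were above infested control leaves at 9.35, 8.77 and 4.62 CPM. The effects were 1.68 ± 0.30 in drought (edgeR adjusted p = 0.00121) and 2.33 ± 0.30 in flooding (adjusted p = 5.89e-05).

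The longest contig, comp904_c0_seq1, had 86.4, 67.1 and 50.1 CPM in uninfested control, 148, 133 and 161 CPM in uninfested drought and 253, 369 and 288 CPM in uninfested flooding. After feeding it had 33.1, 21.1 and 26 CPM, 95.2, 59 and 86.5 CPM, and 144, 133 and 106 CPM. Each step from control to drought to flooding was free of overlap in both insect treatments, and infested flooded leaves exceeded uninfested control leaves. It rose by 1.24 ± 0.17 in drought (edgeR adjusted p = 0.000133) and by 2.09 ± 0.17 in flooding (adjusted p = 1.07e-06). Similar rises in flooding were measured for comp4187_c0_seq1 (1476 bases, 2.26 ± 0.24, adjusted p = 1.09e-05) and comp110_c0_seq1 (885 bases, 1.78 ± 0.23, adjusted p = 4.71e-05). In drought, comp110_c0_seq1 rose by 1.61 ± 0.22 (adjusted p = 0.000212) and comp1789_c0_seq1 (842 bases) by 1.58 ± 0.22 (adjusted p = 0.000195).

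Other contigs were low in both stresses. The fall in flooding was deepest for comp223_c0_seq1 (1748 bases), with 3141, 1734 and 1626 CPM in uninfested control, 631, 183 and 420 CPM in uninfested drought and 151, 318 and 129 CPM in uninfested flooding. After feeding it had 547, 670 and 1690 CPM in control, 80.9, 330 and 260 CPM in drought and 44.8, 26.2 and 77.4 CPM in flooding. Its replicates were widely spread, and infested control replicate 3 was inside the uninfested range. The effects were −2.38 ± 0.47 in drought (edgeR adjusted p = 0.00242) and −3.99 ± 0.50 in flooding (adjusted p = 5.37e-05). With tighter replicates, comp2823_c0_seq1 (3147 bases) had 141, 144 and 135 CPM in uninfested control against 50.6, 45.4 and 63.5 CPM in drought and 65.2, 37.8 and 47.3 CPM in flooding. Its log2 fold change was −1.50 ± 0.13 in drought (adjusted p = 4.5e-06) and −1.41 ± 0.13 in flooding (adjusted p = 2.29e-06).

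Falls in both stresses were also found for comp8258_c0_seq1 (538 bases), at −1.33 ± 0.20 in drought (edgeR adjusted p = 0.000293) and −1.37 ± 0.20 in flooding (adjusted p = 0.000131). The same held for comp25080_c0_seq1 (1542 bases), at −1.66 ± 0.28 (adjusted p = 0.000871) and −1.27 ± 0.28 (adjusted p = 0.00308). The contigs lower in flooding than in drought were comp223_c0_seq1 and comp16475_c0_seq1 (1109 bases), the second named after its values were seen. In comp16475_c0_seq1 the uninfested values were 7.19, 4.39 and 6.17 CPM in drought and 2.99, 4.73 and 2.06 CPM in flooding. The call of comp223_c0_seq1 in this comparison (−1.61 ± 0.46, edgeR adjusted p = 0.0354) was lost, with adjusted p of up to 0.0859, without infested drought replicate 2 or 3, uninfested drought replicate 1 or 3, infested flooding replicate 1 or 2, or uninfested flooding replicate 1 or 3. The count of 2 was then 1 (4.99% to 7.02% of all contigs), and it was 4 without uninfested flooding replicate 2 (5.66%).

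**Figure D5:**
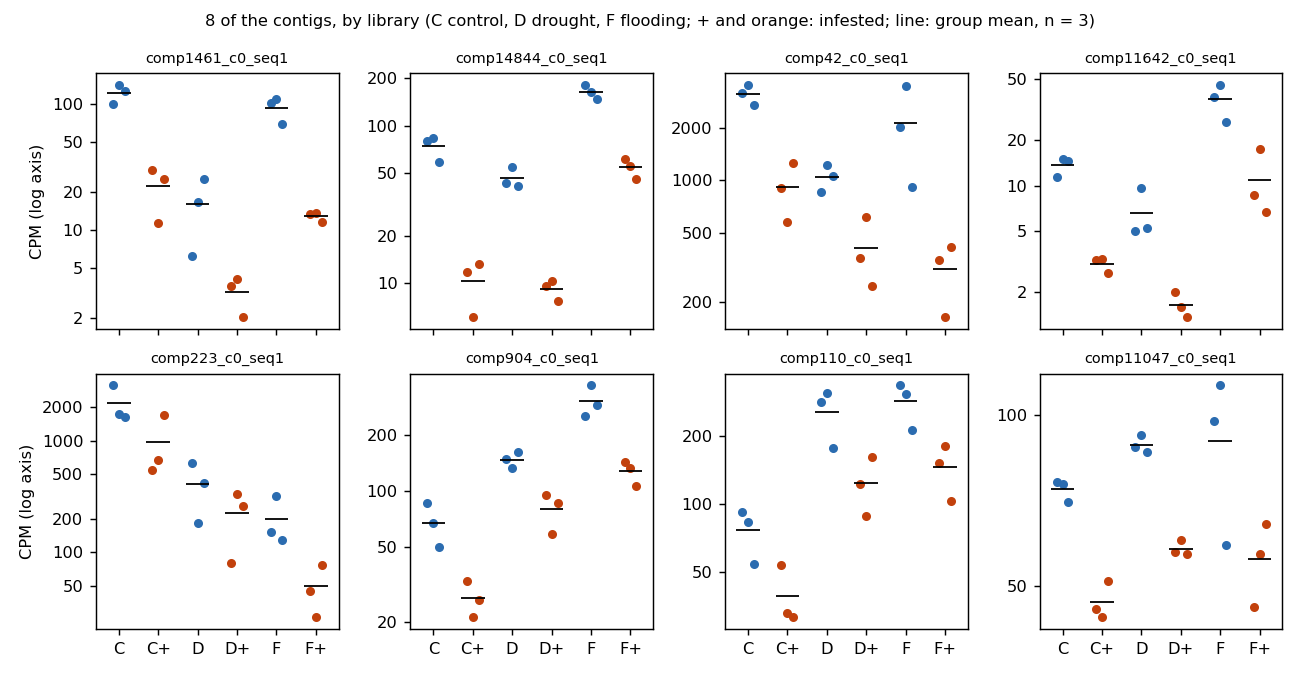
CPM on a log axis in each of the 18 libraries for 8 of the contigs (control, drought and flooding; infested leaves in orange; black lines are group means, n = 3). The panels show contigs low in drought (comp1461_c0_seq1), high in flooding (comp14844_c0_seq1, comp11642_c0_seq1), high in both stresses (comp904_c0_seq1, comp110_c0_seq1), low in both (comp42_c0_seq1, comp223_c0_seq1) and with no called water effect (comp11047_c0_seq1).

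Among the 27 contigs with no call in any water comparison, comp11047_c0_seq1 (1435 bases) ranked first at 8 CPM or more by the smallness of the largest of its 3 estimates. It had 76.4, 75.7 and 70.3 CPM in uninfested control, 88, 92.3 and 86.2 CPM in drought and 97.8, 113 and 59.2 CPM in flooding. Infested leaves had 45.7, 44.1 and 51 CPM, 57.4, 60.4 and 56.9 CPM, and 46, 57.1 and 64.5 CPM. The groups without insects overlapped between control and flooding, while the drought libraries lay above those of control by column total. With TMM scaling, which the test used, uninfested drought and control overlapped as well. Its estimates were 0.18 ± 0.14 in drought (edgeR adjusted p = 0.381) and 0.15 ± 0.14 in flooding (adjusted p = 0.425). Estimates of the same size were obtained for comp1953_c0_seq1 (0.14 ± 0.12 and 0.19 ± 0.12) and comp5342_c0_seq1 (0.16 ± 0.12 and 0.19 ± 0.12). These standard errors leave room for small changes, so the contigs are not shown to be unaffected by water.

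Within groups, the contigs tended to move together from library to library. Relative to the group mean on TMM-scaled values, uninfested flooding replicate 3 was the lowest of its group for 97 of the 120 contigs (80.8%, against 38.9% of all contigs). Infested control replicate 2 was the lowest for 83 (69.2%, against 33.5%) and uninfested control replicate 3 for 81 (67.5%, against 37.9%). The mean correlation of within-group deviations between pairs of contigs, over the 18 libraries, was 0.195 for the 120 and 0.000422 for all contigs, and by column totals it was 0.144 and 0.035. These libraries were among those that chose the contigs, and every contig shares them, so the values are a description. In the same libraries the 569 contigs chosen for a rise after feeding deviated the other way in 2 of these 3: the median deviation in uninfested flooding replicate 3 was −0.27 for the 120 and 0.14 for the 569. In uninfested control replicate 3 it was −0.18 and 0.15, and in infested control replicate 2 it was −0.24 and −0.02.

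Contigs outside the list with the most similar profile over the 6 group means were comp16822_c0_seq1, comp4969_c0_seq1 and comp20035_c0_seq1. Their correlation with the median profile of the 120 was 1.0, 0.997 and 0.992, over 6 points that come from the same libraries. A correlation takes no account of size. Their differences after feeding in control, drought and flooding were −0.24, −0.23 and −0.28 for comp16822_c0_seq1 and −0.27, −0.28 and −0.36 for comp20035_c0_seq1. For comp4969_c0_seq1 they were −0.59, −0.56 and −0.64, nearer the threshold. None of these contigs had a called water effect.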

How the data were processed

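Leaf RNA from 18 libraries was analysed, with groups and replicate numbers from the labels and table columns tied to samples by the column numbers given there. The authors deposited raw counts of reads per contig and a normalized signal; per the submitters' processing notes, Bowtie 0.12.7 and DESeq were used. How contigs were assembled, what counted the reads and whether strand was used is not given in the sources used here, so reads of near-identical or overlapping transcripts could be divided between contigs. On the values, the deposited signal equals the raw count divided by contig length in kilobases and multiplied by a constant of the library, within a relative departure of 1.1e-09.

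The contigs were chosen, and the comparisons and naming rule set, with earlier results of these data known. CPM in the text is by column total, except where TMM scaling is stated. Tests used edgeR 4.0.16 in R 4.3.3 on raw counts. The filter was filterByExpr (at least 10 counts, total of 15), scaling was by TMM, and all 18 libraries entered a robust quasi-likelihood fit of the 6 group means, with 12 residual degrees of freedom. Adjusted p-values are Benjamini-Hochberg over 20170 contigs, and the call threshold was 0.05. The biological coefficient of variation was 18.6%. Water effects are log2 fold changes with standard errors, averaged with equal weight over infested and uninfested leaves. In this balanced design they are orthogonal to the herbivory differences, although a pseudocount of 1 damps the differences of contigs with low levels. P-values measure the spread between these libraries.

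Contigs are named by rank: the 8 with the deepest mean fall after feeding, the 5 most abundant, the 3 largest called rises and falls in each stress, the 3 steadiest, the 3 most alike and unlike in their falls, those nearest the threshold, the longest and shortest, and those of most similar profile. Ranks by water effect, steadiness or likeness required a mean of 8 CPM. DESeq2 1.42.0 and limma 3.58.1, other scalings and filters, a replicate block and leaving out each library were alternatives. On simulated data of 19981 contigs, the drought comparison recovered 93% of 200 contigs changed by 1 log2 unit, with 4.62% false calls. The changed contigs were drawn from those of higher mean count, and no feeding effect was simulated. The recovery therefore does not extend to contigs of low count.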

Additional observations from a re-analysis of the deposited data

How the results depend on the processing

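The list depends most on its thresholds: it held 407 contigs at a threshold of −0.4, 49 at −0.8 and 16 at −1, 59 with a pseudocount of 5, and 103 to 154 when 1 library was left out. With TMM scaling it held 94. Calls lower after feeding in drought were 55 with DESeq2 (0.987% of all contigs) and 46 without scaling beyond the column total (0.704%). The fit described above gave 30 (0.342%). Leaving out 1 library gave 38 to 79 calls lower after feeding in control (1.1% to 4.64% of all contigs). In drought it gave 10 to 38 (0.0682% to 0.582%), and in flooding 66 to 102 (1.75% to 10.9%). For the water effects the ranges were 8 to 10 higher and 36 to 49 lower in drought (7.15% to 11.0% and 9.67% to 12.8% of all contigs), 39 to 49 higher and 16 to 22 lower in flooding (11.4% to 14.5% and 14.8% to 17.2%), and 39 to 57 higher and 1 to 4 lower in flooding against drought (2.83% to 4.28% and 4.99% to 7.02%). Requiring a fold of at least 2 left 22 lower in drought (3.13% of all contigs), and 21 higher and 13 lower in flooding (2.31% and 5.49%). Same-numbered libraries did not deviate together (correlations of −0.321 to 0.394 over 45 pairs, 10 of them over 0.1), so the numbers were not taken to pair the samples. With a replicate block, 1 contig was lower in flooding than in drought (6.26% of all contigs) in place of 2, and 47 were higher (4.0%). The drought counts were then 8 higher (9.0%) and 44 lower (11.9%). The called water effects of the listed contigs named by rule did not change direction under the alternatives run, but some calls were lost. The drought call was lost in 18 of 27 alternatives for comp14892_c0_seq1, 12 for comp14844_c0_seq1 and 8 for comp3824_c0_seq1. It was lost in 7 for comp336_c0_seq1 and 3 for comp11272_c0_seq1. The flooding call of comp6597_c0_seq1 was lost in 7. Uncalled water effects were not recomputed. The feeding effects of the 8 with the deepest fall kept their direction too, but they were ranked by that fall, so nothing is read from it. Of their feeding calls in drought, that of comp1461_c0_seq1 was lost in 5 of 27 alternatives, comp18633_c0_seq1 in 4, comp11642_c0_seq1 in 3 and comp3824_c0_seq1 in 2. There was no such call to lose for comp42_c0_seq1, comp25080_c0_seq1 and comp16520_c0_seq1 (edgeR adjusted p = 0.201, 0.196 and 0.0543). The call of comp42_c0_seq1 in control was lost in 5, and that of comp16520_c0_seq1 in flooding in 2. The call that comp223_c0_seq1 was lower in flooding than in drought (adjusted p = 0.0354) was lost in 9 of 27 alternatives. Contigs of low count limit the list at its lower end: the smallest single count was 1 read.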
